A study of Mus musculus with 8 samples.

Results

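Alpha and mu glutathione S-transferases are cytosolic liver enzymes, and 10 of their genes were followed here in livers with and without Xbp1 on a pair of diets. The members were Gsta1, Gsta2, Gsta3, Gsta4 and Gm3776 of the alpha class and Gstm1, Gstm2, Gstm3, Gstm4 and Gstm6 of the mu class, picked out by gene name from 22923 symbols. The choice of these genes was made with earlier results of these data known. All 10 were listed in every group, each in 1 row, and all 10 stood at 1 RPKM or more in every group. RPKM is the number of reads scaled for transcript length and for the mapped reads of the library, so levels can be compared between genes.

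The study compared 4 groups of C57BL/6 mice: liver-specific Xbp1 knockout mice (KO, Xbp1-/-) given fat-rich food plus an equivalent of high-fructose corn syrup over 4 weeks (high-fat diet), knockout mice fed regular chow, flox controls (Xbp1flox) on the same high-fat diet, and flox controls on chow. Each cohort held 4 mice, pooled into 2 libraries per group. The sources used here give neither the age and sex of the mice nor the Cre line behind the deletion. The files analysed hold 1 value per gene and group, so the differences below could not be checked against replicates and carry no error or p-value. Changes are differences of log2(RPKM + 1), a scale on which the fold of a low gene comes out too small. A gene is said to have risen or fallen where that difference was at least 1 in size, a 2-fold change.

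Glutathione S-transferases join the thiol of glutathione to electrophiles, including products of lipid peroxidation and activated drugs, which makes the conjugates soluble for export. In mouse liver several alpha and mu genes are known targets of NRF2 (Nfe2l2), a transcription factor that KEAP1 holds back until electrophiles or oxidants modify it, and of the xenobiotic receptors CAR and PXR. XBP1 is a transcription factor that answers misfolded protein in the endoplasmic reticulum, and is best known for genes of protein folding and secretion and not for conjugation enzymes.

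The deposited values summed to between 367414 RPKM in knockout high fat and 513694 RPKM in flox chow. Xbp1 stood at 34.1 RPKM in knockout high fat, 44.2 RPKM in knockout chow, 90.7 RPKM in flox high fat and 112 RPKM in flox chow, so that 37.6% of the flox level was left on the high-fat diet and 39.6% on chow; these values cover the whole gene and not the deleted part alone. Of 8 hepatocyte markers, Alb was listed at 0 in all 4 groups and Serpina1c in all but knockout high fat; an exact 0 of this kind can be a failed estimate. The other 6 were measured in every group, among them the transthyretin gene Ttr at 2904 RPKM in knockout high fat and 5347 RPKM in flox chow. These are values of whole liver, in which fewer cells of a type and less RNA per cell cannot be told apart.

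Several members are close copies, which limits what their separate values can say. On mm10, Gsta4 (chr9:78182774-78209349), Gsta1 (chr9:78230656-78242684), Gm3776 (chr9:78257129-78269166) and Gsta2 (chr9:78331018-78355788) lie in a row, and Gsta3 (chr1:21240589-21265661) lies on another chromosome. The coding sequences of Gsta1 and Gm3776 differed at 2 of 669 aligned bases (99.7% identity), and those of Gsta1 and Gsta2 at 13 of 666 (98.0%), whereas Gsta3 had 74.7% and Gsta4 67.0% identity to Gsta1. A stretch of 120 coding bases (coding bases 373 to 492 of the GENCODE M21 transcripts, 5′ to 3′) shows how little separates these copies; capitals mark bases that differ from Gsta1.
Gsta1: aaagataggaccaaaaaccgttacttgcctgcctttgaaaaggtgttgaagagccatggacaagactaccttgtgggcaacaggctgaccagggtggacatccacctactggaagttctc
Gm3776: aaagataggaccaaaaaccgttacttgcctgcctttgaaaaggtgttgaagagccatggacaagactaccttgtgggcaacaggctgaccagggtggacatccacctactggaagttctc
Gsta2: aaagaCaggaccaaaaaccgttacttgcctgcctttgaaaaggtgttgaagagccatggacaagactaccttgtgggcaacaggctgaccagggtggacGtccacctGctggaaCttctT
Gsta3: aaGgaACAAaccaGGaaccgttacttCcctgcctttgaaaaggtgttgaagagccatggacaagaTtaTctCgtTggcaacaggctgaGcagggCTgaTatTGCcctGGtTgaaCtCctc
Gm3776 has no differing base in this stretch, Gsta2 has 5 and Gsta3 has 24. A short read from Gsta1, Gm3776 or Gsta2 that spans no such base can be placed in more than 1 of them.

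The mu genes Gstm6 (chr3:107938847-107943749), Gstm3 (chr3:107963696-107969283), Gstm2 (chr3:107981702-107986453), Gstm1 (chr3:108012255-108017973) and Gstm4 (chr3:108040408-108044894) form a cluster of their own, and their coding sequences matched each other at 79.1% to 89.4%, with Gstm1 and Gstm3 the closest pair. The first 120 coding bases of the mu genes that rose the furthest are shown beside those of Gstm4; capitals mark bases that differ from Gstm1.
Gstm1: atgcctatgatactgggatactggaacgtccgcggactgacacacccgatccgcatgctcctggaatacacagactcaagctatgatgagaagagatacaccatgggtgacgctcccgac
Gstm3: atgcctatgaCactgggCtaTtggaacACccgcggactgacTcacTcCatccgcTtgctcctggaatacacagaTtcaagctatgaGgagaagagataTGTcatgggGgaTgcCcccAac
Gstm4: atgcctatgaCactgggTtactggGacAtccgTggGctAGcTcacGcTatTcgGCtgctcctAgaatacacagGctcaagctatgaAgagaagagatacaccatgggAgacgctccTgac
Gstm3 differs from Gstm1 at 18 of these 120 bases and Gstm4 at 19, so differences lie close together along this stretch. Over whole transcripts, the share of 50-base stretches that also occur in a transcript of another gene was 92.5% in Gm3776, 89.7% in Gsta1 and 64.2% in Gsta2. It was 28.8% in Gstm3, 23.1% in Gstm1, 11.8% in Gstm6 and 9.36% in Gstm2, and 0% in Gsta3, Gsta4 and Gstm4. The values of Gsta1, Gm3776 and Gsta2 are therefore given singly and as a sum. If every shared read was kept and counted a single time, the sum does not depend on how reads were split among the 3. If shared reads were dropped or counted for several genes, the sum is affected too, and their handling is not known. Gm10639, another copy in the same row, also shares stretches with these 3 genes.

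The alpha genes that stood low in control liver were the ones with the largest change. Gsta1, an inducible alpha enzyme, was listed at 37.8 RPKM in knockout high fat, 4.79 RPKM in knockout chow, 1.48 RPKM in flox high fat and 3.03 RPKM in flox chow. Gm3776, its nearest copy, was listed at 28.6 RPKM, 3.18 RPKM, 1.05 RPKM and 1.51 RPKM in knockout high fat, knockout chow, flox high fat and flox chow. For both genes the knockout livers on the high-fat diet stood far above the other 3 groups, which all lay below 5 RPKM. On the high-fat diet, knockout over flox was 25.6-fold for Gsta1 (log2 change 3.97) and 27.2-fold for Gm3776 (log2 change 3.85), ranking 4 and 5 from the top among 10327 genes. On chow, the log2 changes of knockout against flox were 0.52 for Gsta1 and 0.74 for Gm3776, short of the threshold. The plain RPKM ratios on chow were 1.58 for Gsta1 and 2.11 for Gm3776, and with a pseudocount of 0.1 RPKM the log2 change of Gm3776 was 1.03, past the threshold. Because the flox values of this pair are near 1 RPKM, the size of their high-fat changes depended on the pseudocount: it was 4.59 for Gsta1 and 4.64 for Gm3776 with 0.1 RPKM, and 2.72 and 2.47 with 5 RPKM.

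Gsta2, an inducible alpha enzyme too, had another pattern. It was listed at 36.0 RPKM in knockout high fat, 31.6 RPKM in knockout chow, 10.7 RPKM in flox high fat and 22.3 RPKM in flox chow. The knockout groups lay close together (high fat against chow, log2 change 0.19), and the 3.36-fold difference between knockout and flox livers on the high-fat diet (log2 change 1.66) went with a low value in flox high fat. Within a group, the Gsta1 level was 1.05 times that of Gsta2 in knockout high fat, but 0.152 times in knockout chow, 0.138 times in flox high fat and 0.136 times in flox chow. Such a ratio does not depend on the scaling between groups. It does depend on how reads shared by these copies were placed, which is not known. The sum of Gsta1, Gsta2 and Gm3776 was 102 RPKM in knockout high fat, 39.5 RPKM in knockout chow, 13.2 RPKM in flox high fat and 26.9 RPKM in flox chow, which is 7.73-fold higher in knockout than in flox livers on the high-fat diet and 1.47-fold higher on chow.

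Gsta3 and Gsta4, whose stretches are shared with no other gene, did not pass the threshold in any comparison. Gsta3, the main alpha transferase of these livers, was listed at 577 RPKM in knockout high fat, 899 RPKM in knockout chow, 734 RPKM in flox high fat and 941 RPKM in flox chow. It was the only member that was lower in knockout than in flox livers on the high-fat diet (log2 change -0.35), and it was lower on the high-fat diet than on chow in knockout (-0.64) and in flox livers (-0.36). Gsta4, an enzyme known for conjugating the lipid peroxidation product 4-hydroxynonenal, was listed at 40.9 RPKM in knockout high fat, 48.0 RPKM in knockout chow, 23.8 RPKM in flox high fat and 45.4 RPKM in flox chow. Only the flox high-fat group stood apart for Gsta4, and knockout against flox on that diet gave a log2 change of 0.76, which passed the threshold (1.06) once groups were rescaled to equal sums over all but the 50 most abundant genes. Because Gsta3 held most of the alpha RNA, the sum of the 5 alpha members hid the changes of Gsta1 and Gm3776: it was 720 RPKM in knockout high fat, 986 RPKM in knockout chow, 771 RPKM in flox high fat and 1013 RPKM in flox chow, and the sign of its small knockout change turned with the scaling (log2 ratio -0.10 as deposited and 0.21 after that rescaling on the high-fat diet, -0.04 and 0.11 on chow).

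**Figure D1:**
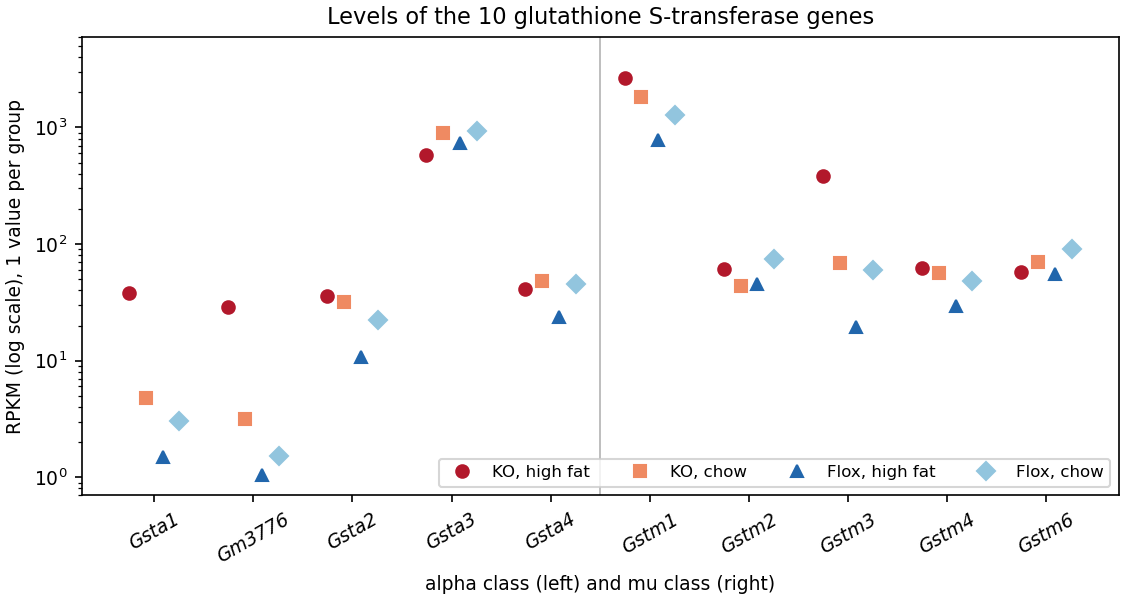
Level of each member in the 4 groups, in RPKM on a log axis, with alpha genes left and mu genes right of the line; each symbol is the 1 deposited value of a group. Gsta1, Gm3776 and Gstm3 stand at 37.8, 28.6 and 384 RPKM in knockout livers on the high-fat diet, far above the other 3 groups, while Gsta3 is lowest there.

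Among the mu genes, Gstm3 had the largest change of all members. It was listed at 384 RPKM in knockout high fat, 68.9 RPKM in knockout chow, 19.4 RPKM in flox high fat and 60.0 RPKM in flox chow. The chow groups lay close together, knockout livers on the high-fat diet stood above them and flox livers below, so that knockout was 19.8-fold above flox on the high-fat diet (log2 change 4.24, ranking 2 among 10327 genes) and 1.15-fold on chow (log2 change 0.20). In order of abundance Gstm3 was gene 131 of 22923 in knockout high fat, 873 in knockout chow, 2377 in flox high fat and 1054 in flox chow.

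Gstm1, the most abundant member in every group, was listed at 2660 RPKM in knockout high fat, 1817 RPKM in knockout chow, 778 RPKM in flox high fat and 1290 RPKM in flox chow. All 6 members that rose in knockout livers on the high-fat diet had the same order of groups, knockout high fat first, then knockout chow, flox chow and flox high fat. Gstm1 rose in knockout against flox livers on the high-fat diet (3.42-fold, log2 change 1.77), and the log2 change on chow was 0.49. By abundance Gstm1 was gene 18 in knockout high fat, 33 in knockout chow, 74 in flox high fat and 48 in flox chow. Gstm3 was present at 0.144 times the level of Gstm1 in knockout high fat, against 0.0379 in knockout chow, 0.0249 in flox high fat and 0.0465 in flox chow, so the pair did not change in proportion.

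Gstm4 was listed at 62.8 RPKM in knockout high fat, 56.7 RPKM in knockout chow, 29.2 RPKM in flox high fat and 48.0 RPKM in flox chow. Its rise in knockout against flox livers on the high-fat diet was close to the threshold (2.15-fold, log2 change 1.08, and 0.99 with a pseudocount of 5 RPKM). Gstm2 was listed at 61.2 RPKM in knockout high fat, 43.3 RPKM in knockout chow, 45.3 RPKM in flox high fat and 75.0 RPKM in flox chow, and Gstm6 at 58.1 RPKM, 70.2 RPKM, 54.9 RPKM and 91.4 RPKM in the same groups. For these last genes the highest group was flox chow, not knockout high fat. Knockout against flox gave log2 changes of 0.42 on the high-fat diet and -0.78 on chow for Gstm2, and of 0.08 and -0.38 for Gstm6, none past the threshold. The mu sum was 3225 RPKM in knockout high fat, 2056 RPKM in knockout chow, 927 RPKM in flox high fat and 1564 RPKM in flox chow, and without Gstm1 and Gstm3 it was 182, 170, 129 and 214 RPKM in those groups.

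**Figure D2:**
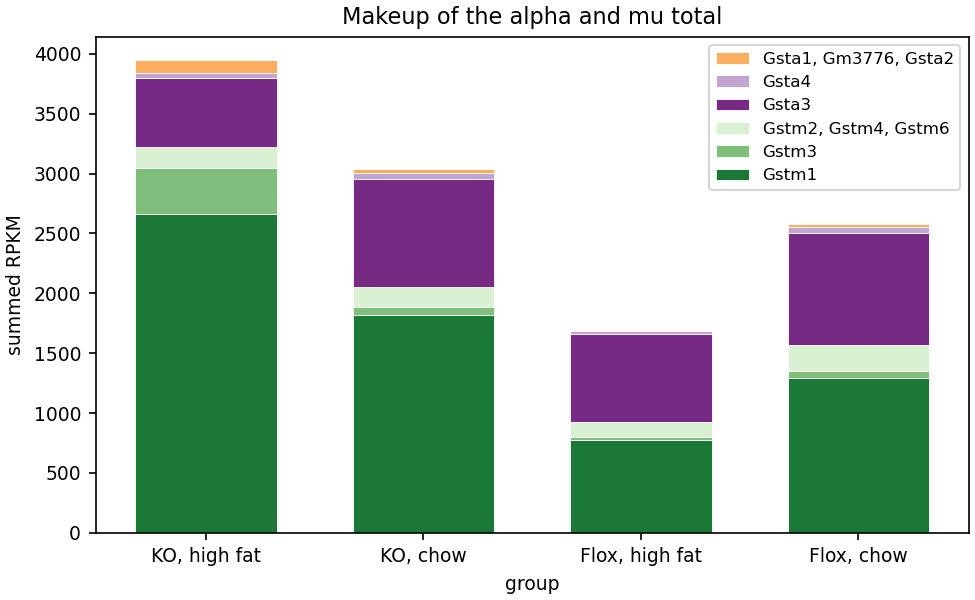
Summed RPKM of the 10 members in each group, stacked by gene from Gstm1 at the bottom. The total is 3945 RPKM in knockout high fat, 3042 RPKM in knockout chow, 1698 RPKM in flox high fat and 2578 RPKM in flox chow, and the Gstm1 layer is widest in knockout high fat.

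The mu class held a larger share of the alpha and mu total in knockout than in flox livers on both diets. The total was 2.32-fold higher in knockout than in flox livers on the high-fat diet and 1.18-fold higher on chow. Mu genes held 81.7% of it in knockout high fat, 67.6% in knockout chow, 54.6% in flox high fat and 60.7% in flox chow. Gstm1 alone held 67.4% in knockout high fat and 45.8% in flox high fat, and Gsta3 held 14.6% in knockout high fat and 43.2% in flox high fat. These shares are taken within a group and do not depend on the scaling between groups.

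At the 2-fold threshold, more members passed in knockout against flox on the high-fat diet than in the other comparisons of 2 groups. At 1.5-fold the order turned, with 7 members there and 8 in the flox diet comparison. The background differed too: over all genes 1.5-fold gave 330 rises and 860 falls of 10327 in knockout against flox on the high-fat diet. In the flox diet comparison it gave 127 rises and 173 falls of 10322. On the high-fat diet 6 of 10 members rose (Gsta1, Gm3776, Gsta2, Gstm1, Gstm3 and Gstm4) and 0 fell, where 1.07% of all 10327 genes rose, 1.86% fell and 2.93% did either. The median log2 change of the members was 1.37 and that of all genes -0.13, and 7 of 10 members were among the highest 2% of genes. In these counts and those below, Gsta1, Gm3776 and Gsta2 share most of their sequence and are not separate observations. The members were also chosen with earlier results of these data known, so setting them beside all genes is a description and no test. Of the alpha and mu genes left out, 0 of 3 passed the threshold in knockout against flox on the high-fat diet (Gm10639 0.88, Gstm5 0.40 and Gstm7 -0.11). Over all genes 111 rose and 192 fell, a split that became 142 rises and 120 falls with the groups' medians brought level, and 193 rises and 90 falls with equal sums over all but the 50 most abundant genes. The members' count was 6 and 7 under these rescalings. On chow, 0 of 10 members passed the threshold for knockout against flox, where 1.62% of 10322 genes did, 0.252% by rising and 1.37% by falling. The members' log2 changes on chow ran from -0.78 for Gstm2 to 0.74 for Gm3776 (median 0.22, all genes -0.02), with 7 above and 3 below 0, of which Gsta3 (-0.07) turned positive (0.08) under the second rescaling.

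**Figure D3:**
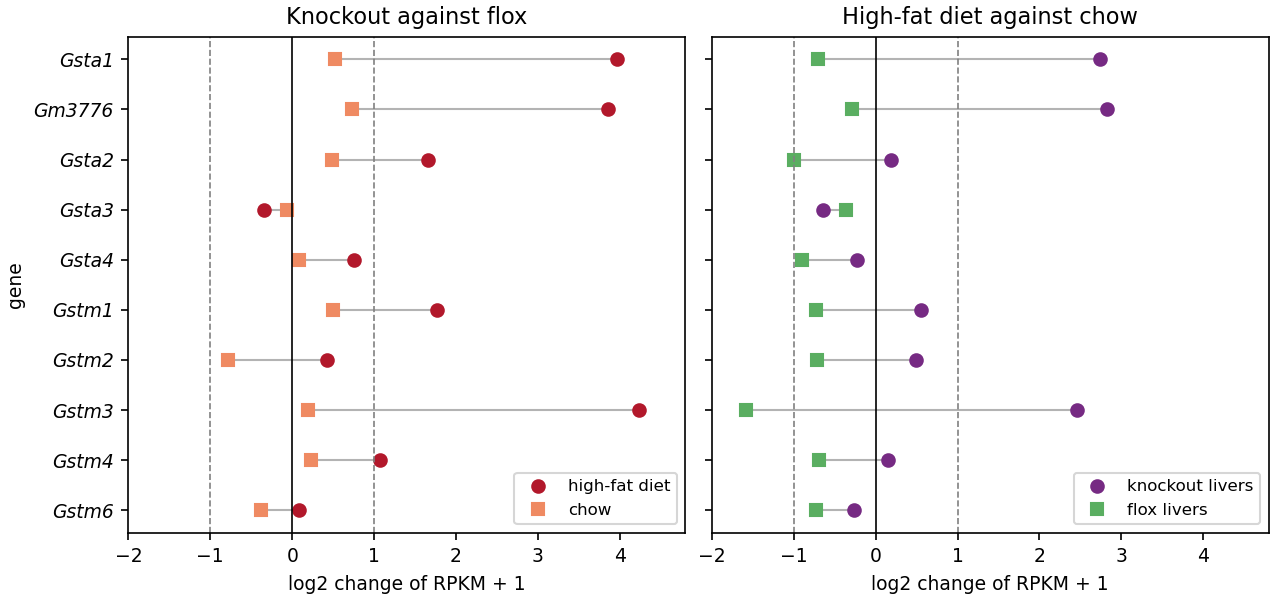
Log2 change of RPKM + 1 of each member, for knockout against flox (left, by diet) and for the high-fat diet against chow (right, by genotype); dashed lines mark a 2-fold change. In flox livers all 10 diet changes lie below 0, from -1.58 for Gstm3 to -0.29 for Gm3776, while in knockout livers Gsta1, Gm3776 and Gstm3 lie between 2.46 and 2.83.

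For 7 of 10 members the high-fat diet went with a higher value than chow in knockout livers and a lower one in flox livers. In flox livers every member was lower on the high-fat diet than on chow, with a median log2 change of -0.72 against -0.01 for all genes. Only Gstm3 passed the threshold (log2 change -1.58), where 0.426% of 10322 genes fell and 0.639% changed either way, and Gsta2 lay just inside it (-0.99, and -1.05 with a pseudocount of 0.1 RPKM). 8 of 10 members were nevertheless among the lowest 2% of genes. With a threshold of 1.5-fold 8 members fell, where 173 of 10322 genes did and 127 rose. The plain RPKM ratios of high fat to chow in flox livers were 0.480 for Gsta2 and 0.487 for Gsta1, both under 0.5. In knockout livers 3 of 10 members rose with the high-fat diet, where 0.668% of 10328 genes rose, 0.794% fell and 1.46% did either: Gm3776 (9.002-fold, log2 change 2.83), Gsta1 (7.88-fold, 2.74) and Gstm3 (5.57-fold, 2.46). Gstm1 (0.55), Gstm2 (0.49), Gsta2 (0.19) and Gstm4 (0.15) were higher by less, and Gsta4 (-0.23), Gstm6 (-0.27) and Gsta3 (-0.64) were lower. The median of all genes was -0.11 in this comparison, and the small negative values of Gsta4 and Gstm6 turned to 0.06 and 0.02 with equal sums over all but the 50 most abundant genes. Over all genes that rescaling gave 134 rises and 47 falls, against 69 and 82 as deposited.

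The difference between the knockout changes on the high-fat diet and on chow was at least 1 for 6 of 10 members, all on the high side, where 0.659% of 10319 genes lay that high, 0.572% that low and 1.23% either. Over all genes the split was 68 against 59, and 105 against 35 under the second rescaling. The difference was 4.04 for Gstm3, the largest of all genes, 3.45 for Gsta1, 3.12 for Gm3776, 1.28 for Gstm1, 1.20 for Gstm2 and 1.18 for Gsta2. For Gstm2 this difference was made of a negative knockout change on chow and a small positive one on the high-fat diet. The value of Gsta2 was 0.97 with a pseudocount of 5 RPKM. Because these differences share their groups with the comparisons above, they restate the same values and add no further evidence.

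**Figure D4:**
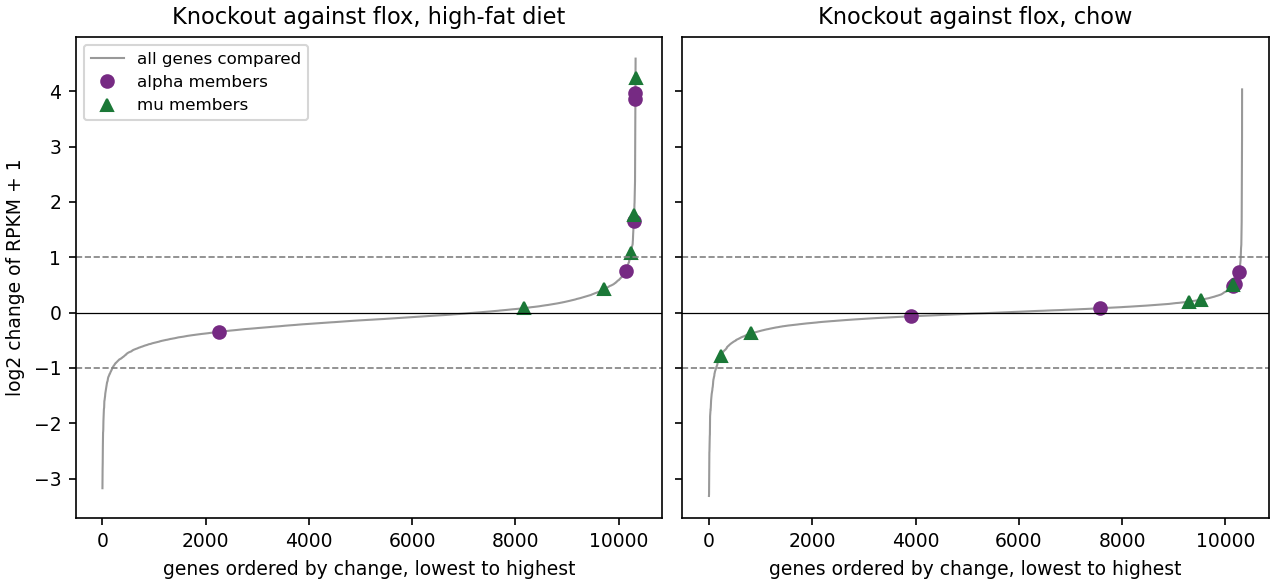
Log2 change of RPKM + 1, knockout against flox, of all genes compared, ordered from lowest to highest on the high-fat diet (left) and on chow (right), with alpha members as circles and mu members as triangles. On the high-fat diet 6 members lie above the dashed 2-fold line and Gsta3 (-0.35) is the only member below 0; on chow all 10 lie between the dashed lines.

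The members fell into patterns that did not follow their class. Taking the distance between centred log2 profiles over the 4 groups, the closest pairs were Gsta1 and Gm3776 (0.30), Gsta2 of the alpha class and Gstm1 of the mu class (0.32), and Gsta3 and Gstm6 (0.37), again from different classes and chromosomes. Gstm3 lay nearer to Gsta1 (0.65) than to Gstm1 (1.84), its closest relative by sequence. Outside the members, the gene most like Gsta1 among 6075 compared was Cbr3, a carbonyl reductase gene and known NRF2 target (distance 0.58), followed by the cytochrome P450 gene Cyp2a4 (0.997), Igfbp1 (1.01), which encodes a binding protein of insulin-like growth factors, Ly6d (1.02) and the cell cycle inhibitor gene Cdkn1a (1.17). Cbr3 was the gene most like Gstm3 as well (1.10), before Igfbp1 (1.34), the serum amyloid gene Saa3 (1.41), Cyp2a4 (1.504) and the osteopontin gene Spp1 (1.52). With 4 values per gene such distances describe a pattern only. The distance between Gsta1 and Gm3776 also depends on how their shared reads were placed, which is not known.

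RefSeq promoter windows on GRCm38.p6, 250 bases before to 50 after the start, were matched for 9 of the 10 members (13 windows). The windows of Gsta1 and Gm3776 differed at 3 of 287 aligned bases, and those of Gsta1 and Gsta2 matched at 77.1%, less than in their coding sequences (98.0%). They are given 5′ to 3′ on the strand of the gene, Gsta1 at chr9:78230419-78230718 (plus strand), Gm3776 at chr9:78256879-78257178 (plus strand) and Gsta2 at chr9:78347096-78347395 (minus strand), with capitals for bases that differ from the aligned Gsta1 window (gaps are not marked).
Gsta1: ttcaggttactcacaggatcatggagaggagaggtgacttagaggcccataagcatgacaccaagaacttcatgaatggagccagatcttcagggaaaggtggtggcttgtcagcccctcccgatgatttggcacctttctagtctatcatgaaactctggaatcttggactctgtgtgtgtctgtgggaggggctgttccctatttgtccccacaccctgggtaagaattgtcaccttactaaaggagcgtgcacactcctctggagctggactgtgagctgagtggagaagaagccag
Gm3776: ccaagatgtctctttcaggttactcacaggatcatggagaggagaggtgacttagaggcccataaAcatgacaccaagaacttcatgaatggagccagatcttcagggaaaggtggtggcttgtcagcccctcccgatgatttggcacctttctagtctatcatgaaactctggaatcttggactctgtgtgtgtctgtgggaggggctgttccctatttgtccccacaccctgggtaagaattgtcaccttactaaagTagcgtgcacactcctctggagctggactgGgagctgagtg
Gsta2: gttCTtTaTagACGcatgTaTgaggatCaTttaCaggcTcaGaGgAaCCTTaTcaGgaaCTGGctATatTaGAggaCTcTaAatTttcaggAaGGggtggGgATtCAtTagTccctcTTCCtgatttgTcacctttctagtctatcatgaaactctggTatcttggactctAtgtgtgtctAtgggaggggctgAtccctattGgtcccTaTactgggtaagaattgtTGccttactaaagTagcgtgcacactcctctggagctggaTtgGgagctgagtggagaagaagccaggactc
The part of the Gsta2 window nearest the start is close to that of Gsta1, and most differences lie farther out. The core of the antioxidant response element, to which NRF2 binds with small MAF proteins, was searched as TGACNNNGC on both strands. It was found in 12.4% of 32851 windows of this length, or in 14.0% of 27025 genes. Among the 9 members with a window it was found in Gsta3 alone, which is near that share. The window of Gsta3 is shown here from chr1:21240335-21240634 (plus strand) with the match in capitals.
Gsta3: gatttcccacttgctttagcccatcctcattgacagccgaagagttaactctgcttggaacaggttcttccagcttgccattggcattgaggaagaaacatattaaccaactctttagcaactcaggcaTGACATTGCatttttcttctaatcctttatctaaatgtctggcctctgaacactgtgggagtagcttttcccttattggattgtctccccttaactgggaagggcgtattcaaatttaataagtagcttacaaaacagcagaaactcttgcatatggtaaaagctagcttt
Gsta3 is 1 of the 4 members that did not rise in knockout livers on either diet, and 1 match is no result about the element. The core of the XBP1 element, TGACGTG, occurred in 2.01% of windows and the ER stress element in 0.119%, both strands counted, and neither in a member's window. A match is only a match of letters, and elements outside these 300 bases were not searched; the response elements described for rodent alpha transferase promoters lie farther upstream.

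Of 10 glutathione transferase genes of other classes compared, 1 rose and 0 fell in knockout against flox livers on the high-fat diet (median -0.41, all genes -0.13), where 2.93% of all genes changed either way. The riser was Mgst3, a microsomal transferase, at 32.8 RPKM in knockout high fat and 14.5 RPKM in flox high fat (log2 change 1.13). How far the pi genes Gstp1 and Gstp2 share reads was not examined. These genes, which are among the most abundant transferases of mouse liver, summed to 1992 RPKM in knockout high fat, 5303 RPKM in knockout chow, 2997 RPKM in flox high fat and 5345 RPKM in flox chow. They were lower on the high-fat diet than on chow in both genotypes, and both fell with the diet in knockout livers (log2 changes -1.40 and -1.44), where Gstm1 was higher (0.55). Of the alpha and mu genes that are no members, Gm10639, Gstm5 and Gstm7 were compared and 0 of 3 passed the threshold on the high-fat diet; Gm10639, the further copy beside Gsta2, was listed at 1.20 RPKM in knockout high fat and 0.192 RPKM in flox high fat (log2 change 0.88).

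The genes of glutathione supply and conjugate handling were compared in the same way. Of 18 genes of glutathione synthesis and recycling, 1 rose and 1 fell on the high-fat diet (median 0.06), against 2.93% of all genes in either direction. The riser was Slc3a2, a chain of amino acid carriers, at 31.1 RPKM in knockout high fat and 11.6 RPKM in flox high fat (1.35). Slc7a11, of the same list, was below the filter at 0.354 and 0.00153 RPKM in those groups and was not compared. The gene that fell, named after its values were seen, was Chac1 (1.22 and 3.80 RPKM in those groups, -1.11). Chac1 encodes a glutathione-degrading enzyme. Gclc, the catalytic subunit of the rate-limiting enzyme of glutathione synthesis, was listed at 95.2 RPKM in knockout high fat and 71.4 RPKM in flox high fat (0.41). Of 10 genes of export and mercapturate formation 0 passed the threshold (median -0.32). Of 12 peroxidases and peroxiredoxins 1 rose, Gpx2, also named after its values were seen, at 3.87 RPKM in knockout high fat and 0.029 RPKM in flox high fat (2.24).

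Among regulators, the RNA of NRF2 itself stayed short of the threshold. Nfe2l2 was listed at 32.2 RPKM in knockout high fat, 29.2 RPKM in knockout chow, 26.5 RPKM in flox high fat and 21.4 RPKM in flox chow, and Keap1 at 11.7 RPKM, 13.6 RPKM, 12.9 RPKM and 14.4 RPKM. None of 9 NRF2 regulator genes passed the threshold on either diet, where 2.93% of all genes did on the high-fat diet and 1.62% on chow. RNA says nothing of the protein's activity. Of 19 NRF2 targets outside the transferases, 4 rose and 0 fell in knockout against flox livers on the high-fat diet (median 0.41, all genes -0.13). Over all genes 1.07% rose and 1.86% fell there. The risers were Cbr3 (10.9 RPKM in knockout high fat and 0.299 RPKM in flox high fat, log2 change 3.20), the quinone reductase gene Nqo1 (9.13 and 3.12 RPKM, 1.30), Cbr1 (83.9 and 36.0 RPKM, 1.20) and Gpx2 (2.24). Gpx2 is the same gene that was counted among the peroxidases above. On chow 0 of 19 passed the threshold (median 0.07). Of 14 genes of CAR, PXR and their targets, 1 rose and 3 fell on the high-fat diet (median -0.34), set against the same shares of all genes. The esterase gene Ces2a (-2.72), the transporter gene Slco1a4 (-1.42) and the cytochrome P450 gene Cyp3a25 (-1.32) fell in knockout livers, and Cyp2b9 (4.99 RPKM in knockout high fat and 1.34 RPKM in flox high fat, 1.36), named after its values were seen, rose.

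**Figure D5:**
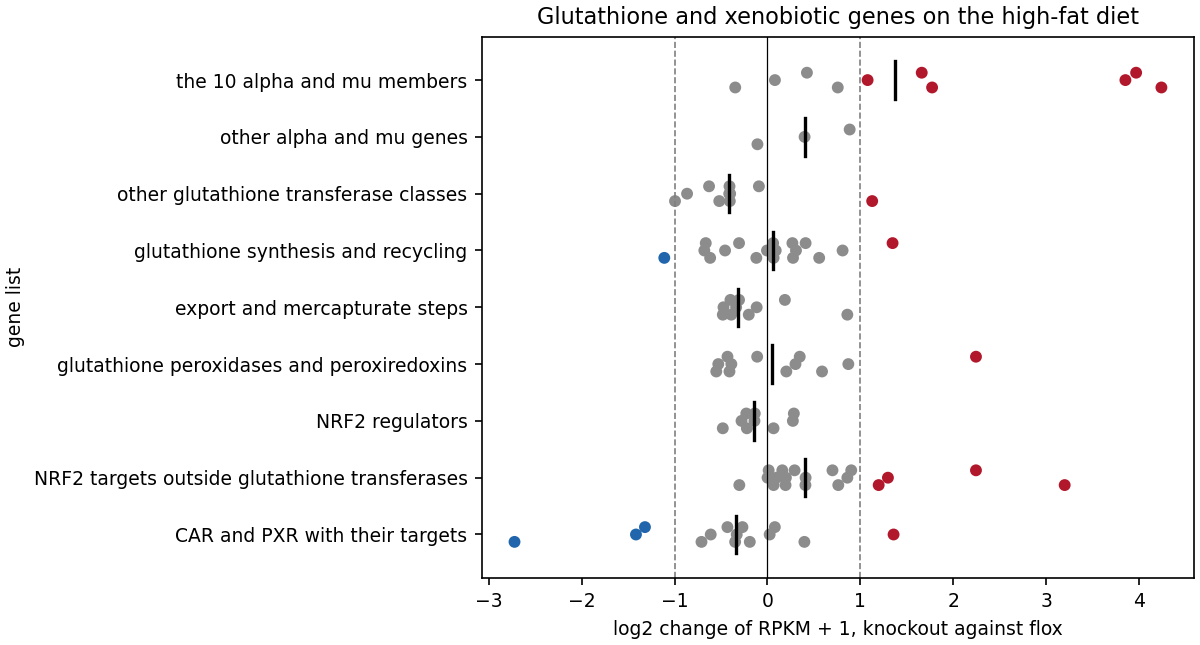
Log2 change of RPKM + 1 in knockout against flox livers on the high-fat diet for each gene of the glutathione and xenobiotic lists; each point is a gene, the black bar is the list's median, and red points rose while blue points fell. The members' median is 1.37, that of NRF2 targets outside the transferases 0.41 and that of other transferase classes -0.41.

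Some marker genes of liver cell types and of the liver zones differed between the same groups. The counts below are for knockout against flox livers on the high-fat diet, where 1.07% of all genes rose, 1.86% fell and 2.93% did either. Of 6 hepatocyte markers compared, 2 fell (Apoa1 by 1.23 and Cps1 by 1.04 on the log2 scale); these 6 genes summed to 9375 RPKM in knockout high fat, 13947 RPKM in knockout chow, 18092 RPKM in flox high fat and 20255 RPKM in flox chow. With Serpina1c, which was listed at 3004 RPKM in knockout high fat and at 0 in the other 3 groups, the sum in knockout high fat was 12379 RPKM. Of 7 cholangiocyte markers compared, 4 rose in knockout against flox livers on the high-fat diet (median 1.21). The 8 genes of that list summed to 119 RPKM in knockout high fat, 46.7 RPKM in knockout chow, 25.1 RPKM in flox high fat and 23.8 RPKM in flox chow, with Spp1 making up most of it at 103, 39.4, 20.6 and 19.7 RPKM and Krt19 at 1.61, 0.780, 0.632 and 0.498 RPKM, and none was listed at 0. Stellate cell markers had 3 rises among 6 (summed 35.5 RPKM in knockout high fat and 17.3 RPKM in flox high fat), and macrophage markers 0 among 6 (177 and 136 RPKM) and endothelial markers 0 among 5 (26.7 and 29.0 RPKM). Of 14 pericentral genes 0 rose and 2 fell, Cyp2e1 (-1.63) and Cyp1a2 (-1.05). Of these 14, 9 had changes above 0 and 5 below (median 0.19, all genes -0.13). Of 15 periportal genes 0 rose and 5 fell (median -0.85), led by Hal (-1.59). The part of these cells and zones in the levels of the members was not tested.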

How the data were processed

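Liver RNA of 4 groups was sequenced as 8 libraries, 2 per group, per the labels. The authors deposited RPKM values, 1 per gene and group, in 4 files, per the file headers; the files' names carry the group names of the labels. The submitters' processing notes list mm10, Cuffdiff 2.1.1 and TopHat2 2.0.7 without saying what each did. How libraries of a group were combined and reads shared by copies were placed is not given in the sources used here. Depth is unknown: at most 21.8% of low values times transcript length fell within 0.05 of whole steps, too few to recover reads.

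Repeated symbols (158, no member) were summed. Of all genes, 10351 reached 1 RPKM in some group and were kept, and a gene listed at 0 in a group was left out of comparisons with it. Differences of log2(RPKM + 1) were called at an absolute value of 1. With 1 value per group no test was run. From each of 15 lists, up to 4 genes past the threshold on the high-fat diet with at least 5 RPKM were named, beside Xbp1, Nfe2l2, Keap1, Gclc and Nqo1, and the 5 genes most like Gsta1 and Gstm3. The members, lists and naming rule were chosen with earlier results of these data known.

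Coordinates, transcripts and coding sequences came from GENCODE M21 (GRCm38, which is mm10), with 1 principal transcript per gene aligned pairwise (Biopython 1.88), and promoters from RefSeq. The 50-base length for shared stretches was chosen here, since the sources used here do not give the read length. Protein sequences were not used. The software was pandas 2.3.3 with numpy 2.4.6 under Python 3.11.15, and matplotlib 3.10.9 for plots. The 9 alternatives covered pseudocount, filter, threshold, scaling, repeated rows and zeros.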

Additional observations from a re-analysis of the deposited data

Results flagged for a closer look

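For 6 members the high-fat diet went with a higher value in knockout livers and a lower one in flox livers, and the 2 changes differed by at least 1 on the log2 scale. The difference was 3.45 for Gsta1, 3.12 for Gm3776, 1.18 for Gsta2, 1.28 for Gstm1, 1.20 for Gstm2 and 4.04 for Gstm3. With 1 value per group these differences were not tested. Gsta1, Gm3776 and Gsta2 share most of their sequence, so their values are not separate observations.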

How the results depend on the processing

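No paired analysis was possible because the files hold 1 value per group, and the alternatives with a replicate block or without a replicate were not run for the same reason. Of 450 recomputed member changes, 432 kept their side of the threshold and 0 that had passed it changed sign. Another 16 came to pass it, 13 of them with the lower threshold of 1.5-fold, and 2 no longer did. The alternatives for the filter, repeated rows and zeros could not move a member, and each kept all 50 of its changes. Every member has 1 row, is listed above 0 and reaches 5 RPKM in some group. The 432 therefore include changes whose outcome was fixed in advance. The count of members past the threshold for knockout against flox on chow was 0 as reported, 1 with a pseudocount of 0.1 RPKM (Gm3776) and 2 at 1.5-fold. Over all 10322 genes the pseudocount of 0.1 RPKM gave 81 rises and 182 falls, and 1.5-fold gave 113 rises and 396 falls. For the high-fat diet against chow in flox livers the count of members was 1 as reported, 2 with a pseudocount of 0.1 RPKM and 8 at 1.5-fold. There the same settings gave 61 rises and 63 falls, and 127 rises and 173 falls, over all 10322 genes. The summed level of Gsta1, Gsta2 and Gm3776 in flox livers, high-fat diet against chow, had a log2 ratio of -1.02 as deposited and -0.89 with equal sums over all but the 50 most abundant genes; the cause was not tested. The other counts of members stayed within 1.5 times of those reported under the 9 alternatives. What limits every value here is that the spread between libraries and their depth are unknown.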
